A study of Mus musculus with 46 samples.

Results

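The regulatory fragments described here are the 27 candidate cis-regulatory elements (cCREs) of the Nanog library that start in 1 interval of chromosome 6 (mm10) around Nanog, other than E073 and E074. They were chosen by position, with E073 and E074 left out by name although they start inside the interval, at 5 and 4.7 kb upstream of the Nanog start. The members have listed starts from 122605446 (E046) to 122751606 (E085). They are 27 out of 105 cCREs in the Nanog library and 423 in the 3 libraries of the assay with fragments upstream of the reporter. Each spans 450 bp from its listed start to its listed end. The interval runs from Gdf3 through Dppa3 and Nanog into Slc2a3.

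The study asked which enhancer fragments work with which promoters when both are taken out of the genome and placed on a plasmid. One fragment, or 2 in a row, lay upstream of a barcoded reporter, and the plasmids were brought by nucleofection into E14TG2a cells, an established mouse embryonic stem cell line grown in 2i+LIF medium. The Klf2, Nanog and negative control libraries were transfected as 1 mix in 3 independent biological replicates, and RNA was collected after 24 h. Every replicate holds every construct and no sample was treated differently from another, so all comparisons below are between constructs. Activity is the ratio of reporter RNA to plasmid input, and a construct lies outside the chromosome, away from its native neighbours and distances.

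Nanog is a homeodomain transcription factor that stabilises the undifferentiated state of embryonic stem cells. Dppa3 protects DNA methylation in the early embryo, Gdf3 is a secreted ligand of the TGF-beta superfamily, and Slc2a3 is a neuronal and embryonic glucose transporter. An enhancer raises transcription from a promoter that may lie far away in the genome, and in stem cells such elements are typically bound by OCT4, SOX2, NANOG, KLF and ESRRB proteins. Flanking genes include the Clec4 family of myeloid C-type lectin receptors, whose promoters served as further partners in the library.

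Sequences are shown for a pair of partner promoters. P010 held most rises called for members other than E064, and P017 had the largest rise behind E064. Whether their sequences bear on these calls was not tested. The Nanog promoter fragment P010 covers chr6:122707113-122707563 and the Clec4a1 promoter fragment P017 covers chr6:122921472-122921922. The RefSeq promoter table (GRCm38.p6, the assembly of mm10) gives the 250 bases before each gene start on the plus strand, at chr6:122707239-122707488 and chr6:122921598-122921847. Capitals mark matches to a searched motif.
P010, Nanog: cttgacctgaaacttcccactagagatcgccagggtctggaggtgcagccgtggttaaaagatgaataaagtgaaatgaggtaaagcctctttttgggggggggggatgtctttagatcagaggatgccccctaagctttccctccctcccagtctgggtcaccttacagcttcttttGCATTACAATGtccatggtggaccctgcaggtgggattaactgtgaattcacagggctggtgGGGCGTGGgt
P017, Clec4a1: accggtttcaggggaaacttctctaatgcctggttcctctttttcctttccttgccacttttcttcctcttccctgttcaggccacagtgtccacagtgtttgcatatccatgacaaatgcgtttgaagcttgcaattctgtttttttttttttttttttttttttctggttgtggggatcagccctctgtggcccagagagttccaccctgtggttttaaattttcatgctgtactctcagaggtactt
The motifs, searched on both strands, were the octamer ATGCAAAT, the SOX core CATTGT, the SOX core followed by ATGC after 0 to 3 bases, the KLF motif GGGNGTGG and the ESRRB-like motif AAGGTCA. The Nanog window held the SOX core followed by ATGC on the minus strand, from 72 to 62 bases before the start, and the SOX core match lay inside it. That composite was found in 0.134% of 32851 promoter windows of the same length. A KLF motif lay 10 to 3 bases before the Nanog start, and such a motif was found in 15.9% of windows. The Clec4a1 window held none of these letters, which were otherwise present in 10.7% of windows for the SOX core, 4.08% for the ESRRB-like motif and 1.60% for the octamer.

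The 27 cCREs were not measured equally well. Of the 399 member constructs with a promoter, 22 had a replicate at 0 and were left out of the tests, which leaves 377. Pairs of cCREs that include a member numbered 5184, and 823 of these joined 2 members. E083, within Slc2a3, was listed with 16 promoters and 59 constructs, and E064, E057 and E054 with 14 or 15 promoters. E050, E059, E063 and E072 were measured with no promoter. E050, the only member with no activity of its own in the table, was seen in 1 usable construct, behind E074, at 1.5, 1.46 and 1.36. Replicates correlated on the log2 scale with Pearson's r of 0.87 to 0.88 over 5745 member constructs, where constructs share fragments and are not independent. The SD between replicates was 0.16 on the log2 scale (median) for 912 member constructs with a mean activity over 1, and 1.28 for 3800 with a mean under 0.2. The numbers of barcodes and reads behind each construct are not known here, so no counting interval can be given. Error bars below come from 3 transfections of 1 plasmid pool.

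Background was read from the construct that the table names as empty. The labels do not say what it holds. Its activity was 0.118, 0.0675 and 0.238 in replicates 1, 2 and 3, lowest in replicate 2 and highest in replicate 3.

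E064, 44.7 kb upstream of the Nanog start and in no annotated gene, was the 1 strong activator among the 27. On its own it gave 2.08, 2.21 and 2.11 in the plus orientation and 2.18, 2.29 and 2.39 in the minus orientation. All 6 values were far above the empty construct of the same replicate, at 8.86 to 33.9 times its activity. Against the median cCRE alone of its library, the plus orientation was higher by 4.04 (log2, SE 0.43) and the minus orientation by 4.14 (SE 0.40), both with limma adjusted p = 0.010 (Benjamini-Hochberg). The plus orientation was lower than E073, one of the strong pair of cCREs left out of the set, with a log2 difference of −0.78 ± 0.05 (SD, n = 3), and E073 was higher in all 3 replicates (exact permutation p = 0.10, two-sided, the smallest that 3 against 3 allows). In the minus orientation the difference from E073 was −0.59 ± 0.10, again with E073 higher in all 3 replicates (exact permutation p = 0.10, two-sided). Against E074, the other of that pair, E064 was lower in all 3 replicates in the plus orientation, by a log2 difference of −0.87 ± 0.07 (exact permutation p = 0.10, two-sided). In the minus orientation the difference was −0.08 ± 0.14, within the spread of replicates (exact permutation p = 0.30, two-sided).

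The remaining cCREs did little on their own. Of 51 oriented members measured alone, 3 were higher than the median cCRE (5.88%), against 19% of the 363 oriented cCREs tested in the mix. The share was 26.5% for the other oriented cCREs of the Nanog library, which include E073 and E074. With quantile-normalized activities 8 members were higher and 15 lower, and without replicate 3, 6 were higher and 5 lower. No member was lower in the test on the activities as deposited, against 0.275% in the mix, by limma with Benjamini-Hochberg adjustment, and 13 members had an unadjusted p under 0.05 in either direction. The third call, after both orientations of E064, was E082 in the minus orientation. E082 lies within the Slc2a3 span, and its minus orientation gave 0.353, 0.246 and 0.473. In the plus orientation it gave 0.136, 0.0679 and 0.263, just above the empty construct in each replicate. The minus orientation was higher than the median cCRE by 1.41 (log2, SE 0.25, limma adjusted p = 0.026), and higher than the plus orientation within each replicate, although the values of different replicates overlapped (exact permutation p = 0.20, two-sided).

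Next in activity were E066 in the minus orientation, with 0.195, 0.222 and 0.437, and E057 in the minus orientation, with 0.223, 0.146 and 0.336. E066 lies 38.1 kb upstream of Nanog, and E057 overlaps the gene model Gm8460. Neither passed against the median cCRE, with limma adjusted p of 0.085 and 0.074. Against the empty construct, a baseline added after the data were seen, 6 oriented members passed, namely both orientations of E064 and E057 and the minus orientations of E082 and E066. Over the 202 oriented cCREs of the Nanog library 24.3% passed against it. The lowest members were E076 in the plus orientation with 0.0258, 0.0238 and 0.263, E046 in the plus orientation with 0.0877, 0.0304 and 0.182, and E052 in the plus orientation with 0.105, 0.0229 and 0.234. E046 lies within Gdf3 and E052 within Dppa3. These values were at or below the empty construct, apart from E076 in replicate 3. Of the 49 oriented members other than E064, 10 lay above the empty construct and 16 below it in all 3 replicates. Of the 147 oriented cCREs of the library outside the interval, 69 lay above it and 34 below.

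Placed before a promoter, 43 of the 377 member constructs (11.4%) were higher than the promoter alone and 4 (1.06%) lower (limma, Benjamini-Hochberg adjusted p under 0.05). In the mix 6.15% of 4941 constructs were higher and 6.6% lower. For the other cCREs of the Nanog library, which include the strong E073 and E074, 15.4% were higher. Of the 43, 30 were constructs of E064, and the remaining 334 constructs gave 13 (3.89%). Their median log2 difference was −0.20, beside −0.24 over all constructs tested. With the replicate as a block, 51 constructs were higher and 12 lower. With quantile-normalized activities 74 were higher and 40 lower. Leaving out any 1 of the 3 replicates ended every one of these calls, with 44, 65 and 85 constructs at an unadjusted p under 0.05 without replicates 1, 2 and 3.

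All 43 tested constructs of E064 with a promoter lay above the promoter alone, and 30 passed. E064 alone, at 2.08 to 2.39, also exceeded each of these promoters alone except the M6pr promoter P001. In its plus orientation, only pairs with P001 and P010 exceeded E064 alone in every replicate. In its minus orientation, so did the pairs with P001 and P010, with P003, P004, P007 and P017 in the plus orientation, and with P025 in the minus orientation. The pair of E064 in the minus orientation with the Nanog promoter in the plus orientation gave 7.08, 7.51 and 6.59. The promoter alone gave 0.789, 0.627 and 0.864. Pair and promoter did not overlap, with a rise of 3.23 (log2, SE 0.18, limma adjusted p = 0.0043). With the Nanog promoter reversed, the same orientation of E064 gave 6.56, 7.45 and 5.20 against 0.451, 0.341 and 0.522. The rise was 3.88 (SE 0.24, limma adjusted p = 0.0043). The plus orientation of E064 gave 4.69, 5.09 and 4.32 with the Nanog promoter in its plus orientation and 2.68, 2.63 and 2.38 in its minus orientation. These were rises of 2.64 (SE 0.19) and 2.57 (SE 0.21), with limma adjusted p of 0.0048 and 0.0062.

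The Nanog promoter was not the partner with the largest rise over the promoter alone. In activity, its pairs with E064 in the minus orientation exceeded those of P017, P025 and P004 named below in each replicate. The 10 called pairs with the largest changes all held E064 in the minus orientation and spanned 12.7-fold to 30.6-fold. The first was with the Clec4a1 promoter P017 (plus orientation), whose sequence is printed above, at 2.76, 4.31 and 4.19 against 0.121, 0.0574 and 0.250 alone. Alone, P017 was close to the empty construct, at 0.118, 0.0675 and 0.238. Pair and promoter did not overlap, and the rise was 4.94 (log2, SE 0.58, limma adjusted p = 0.011). Next came the Clec4e promoter P025 in the minus orientation, at 2.92, 2.56 and 2.92, and the fragment P004 in the plus orientation, at 4.32, 5.14 and 4.41. P004 lies 11624 bp from its nearest annotated gene, Rimklb, and its rise was 4.67 (SE 0.37, limma adjusted p = 0.0055). The Apobec1 fragment P007 in the plus orientation rose from 0.253, 0.213 and 0.397 to 3.10, 3.54 and 3.17 behind the minus orientation of E064. That is a rise of 3.55 (SE 0.27, limma adjusted p = 0.0055).

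The smallest rise of E064 was with the most active promoter. P001, at M6pr, gave 4.69, 4.51 and 3.91 alone in the plus orientation, more than E064 itself. Behind E064 in the plus orientation it gave 7.12, 6.59 and 5.45, and behind the minus orientation 6.91, 7.14 and 5.93. Every value was above the promoter alone, by 0.54 (log2, SE 0.18) and 0.61 (SE 0.16), with limma adjusted p of 0.12 and 0.076. With the replicate as a block the p fell to 0.043 and 0.039. Over 24 oriented promoters, the rise had Pearson's r = −0.58 and Spearman's rho = 0.02 with the promoter's own log2 activity, and r was 0.19 without the 2 promoters farthest from the median. The promoter's value enters both axes. Over the 43 constructs the rise had r = −0.08 and rho = −0.04 with the genomic distance between E064 and the promoter (log10).

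The minus orientation of E064 was the stronger before promoters. Over 19 oriented promoters measured with both, the boost index (the log2 ratio of a construct to the median of all constructs that share its oriented promoter) was 2.49, 3.31 and 1.70 for the plus orientation and 3.27, 4.39 and 2.62 for the minus orientation in replicates 1, 2 and 3. The minus orientation was higher in each replicate and at 17 of 19 promoters. The difference, plus less minus, was −0.92 (SE 0.09, limma adjusted p = 0.024). Alone, minus exceeded plus by 0.10 ± 0.07 (log2, SD, n = 3; exact permutation p = 0.20, two-sided).

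E065, the next cCRE downstream of E064, also differed by orientation, although it was at background alone. Over 3 oriented promoters its boost index was −0.47, −1.56 and −0.60 in the plus orientation and 0.46, −0.26 and 0.01 in the minus orientation. Minus was higher at each of the 3, and plus less minus was −0.94 (SE 0.16, limma adjusted p = 0.046). With the pseudocount this call of E065 was lost (limma adjusted p = 0.16). So 2 of 10 members tested were lower in the plus orientation, against 5.15% of 97 cCREs in the mix, and 0 were higher, against 10.3%. At an unadjusted p under 0.05 there were also 2. Neither call was kept when any 1 replicate was left out, with 3, 1 and 2 members at an unadjusted p under 0.05 without replicates 1, 2 and 3.

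Averaged over promoters, E064 had a mean boost index of 2.94, 3.94 and 2.21 in replicates 1, 2 and 3, or 3.03 (SE 0.34, limma adjusted p = 0.011). E073 reached 3.64, 4.81 and 2.81 and E074 3.29, 4.41 and 2.43. Over the 24 constructs with the same cCRE orientation and oriented promoter, E064 less E073 was −0.98 ± 0.14 (log2, SD, n = 3), with E064 higher in 1 of them. Over 42 such constructs E064 less E074 was −0.41 ± 0.12, with E064 higher in 17. Both differences were larger than their spread and had the same sign in all 3 replicates.

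Of the 21 members with at least 3 promoters, 2 had a mean boost index above 0 and 6 below 0 by limma with Benjamini-Hochberg adjustment. In the mix 17.3% of 156 cCREs were higher and 21.8% lower. Besides E064, E082 was higher, with 0.21, 0.47 and 0.38 and a mean of 0.35 (SE 0.09, adjusted p = 0.042). The next 3, E071, E081 and E052, had means of 0.13, 0.07 and 0.03 and did not pass. E071 lies 12.5 kb upstream of Nanog.

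The 6 that were lower were E062, E049, E051, E054, E080 and E083. E062, 48 kb upstream of Nanog, had −1.03, −1.42 and −0.44, a mean of −0.96 (SE 0.20, limma adjusted p = 0.031). It was below 0 in each replicate. E049, nearest to Gdf3, had −0.79 from 4 constructs (SE 0.12, limma adjusted p = 0.015). E051, 1477 bp from Dppa3, had −0.63 from 7 constructs (SE 0.09, limma adjusted p = 0.015). E054 had −0.50, E080 −0.46 and E083 −0.32, the last from 58 constructs. E068 had −0.35, −1.34 and −0.23, a mean of −0.64 that did not pass (limma adjusted p = 0.099). Without replicate 1, E064, E062 and E049 passed, and without replicate 2 or 3 only E064 did. When medians replaced means across promoters, E064 and E051 passed.

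Among 46 tested constructs of a member other than E064 with P010, 12 were higher than the promoter alone and 2 lower (26.1% and 4.35%). Over all 184 constructs of the Nanog library with P010, 32.6% were higher and 3.8% lower. Among 288 constructs of these members with all other promoters, 1 was higher and 2 lower. Over all 1256 constructs of the Nanog library with any promoter, P010 and E064 included, 14.2% were higher and 1.11% lower. The library share for promoters other than P010 is not given here. The measurement was not equally sensitive in these sets. The SE of the log2 difference had a median of 0.27 with P010 and 0.89 with the others. Apart from P001, P007 and P010, the oriented promoters paired with members had mean activities alone of 0.0683 to 0.181, close to the 0.124 of the empty construct, which leaves little room for a fall to be measured.

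E085, within the Slc2a3 span and 44.1 kb downstream of the Nanog start, gave the largest rise of these. In the plus orientation it gave 2.35, 2.25 and 2.04 with the Nanog promoter in the minus orientation, against 0.451, 0.341 and 0.522 alone. The values did not overlap, and the rise was 2.36 (log2, SE 0.21, limma adjusted p = 0.0069). E057 in the minus orientation gave 1.91, 2.20 and 2.01 with the same promoter, a rise of 2.24 (SE 0.21, limma adjusted p = 0.0082). In the plus orientation E057 gave 0.325, 0.262 and 0.431, below the promoter alone by 0.38, which did not pass (limma adjusted p = 0.52). With the promoter in its plus orientation the pairs of the minus and plus orientation of E057 gave 1.74, 1.77 and 1.64 (rise 1.19, limma adjusted p = 0.021) and 0.942, 0.977 and 1.02 (0.38, adjusted p = 0.26).

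E082 passed in all 4 of its constructs with P010. Its minus orientation gave 1.55, 2.06 and 2.11 with the reversed promoter, a rise of 2.13 (SE 0.24, limma adjusted p = 0.010). Its plus orientation gave 1.74, 2.30 and 0.992, a wider spread, and a rise of 1.87 (SE 0.37, limma adjusted p = 0.036). With the promoter in its plus orientation the rises were 1.16 and 0.82 (limma adjusted p = 0.022 and 0.0499). With the block, E082 in its plus orientation did not pass with either orientation of the promoter (limma adjusted p = 0.066 in both).

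E075, 1176 bp from the end of Nanog, gave 1.65, 1.95 and 1.83 with the reversed promoter, a rise of 2.07 (SE 0.21, limma adjusted p = 0.0092). With the promoter in its plus orientation it gave 1.03, 0.911 and 0.856, which was not above the promoter in replicate 3 (limma adjusted p = 0.42). E052, within Dppa3, gave 3.31, 1.87 and 2.61 in the minus orientation with the promoter in its plus orientation. All 3 values lay above the promoter, by 1.75 (SE 0.27, limma adjusted p = 0.022), while alone E052 gave 0.144, 0.0850 and 0.272 in that orientation. E071 in the minus orientation gave 1.51, 0.940 and 1.15 with the reversed promoter, a rise of 1.45 (SE 0.27, limma adjusted p = 0.030). The remaining called pairs were those of E085 in the minus orientation with both orientations of the promoter, at rises of 1.42 and 0.99.

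The 2 lower pairs with P010 were those of E062 and E080. E062 in the minus orientation gave 0.170, 0.0518 and 0.196 with the promoter in its plus orientation, which fell by 2.65 on the log2 scale (SE 0.56, limma adjusted p = 0.041). All 3 pair values were below the lowest of the promoter alone, 0.627, and near the empty construct. The other 3 constructs of E062 with P010 had log2 differences of −2.02, −1.74 and −1.34 and did not pass. E080, within the Slc2a3 span, gave 0.146, 0.178 and 0.290 in the minus orientation with the promoter in its plus orientation, a log2 difference of −1.94 (SE 0.31, limma adjusted p = 0.023). E054 had log2 differences of −0.97, −0.92, −0.82 and −0.74 in its 4 constructs with P010, none past the threshold, and E068 had −1.30 and −1.16. With the block, 3 of those 4 constructs of E054 passed.

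The difference between the Nanog promoter and other promoters was tested directly for the 19 members measured with both, in a comparison added after the calls above were seen. Of these, 7 had a higher mean log2 change with P010 than with the others, and 2 a lower one (limma, Benjamini-Hochberg). The share of 36.8% was close to the 38.4% of the 73 Nanog cCREs tested, and for lower it was 10.5% against 12.3%. The 7 were E052, E085, E082, E075, E065, E071 and E057. E085 had a mean change of 1.41 with P010 and −0.42 with 7 other promoters, a difference of 1.82 (SE 0.27, limma adjusted p = 0.0064). E052 had 1.75 and −0.29 (difference 2.04, SE 0.27, limma adjusted p = 0.0057).

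The 2 members lower with P010 were E062 and E080. E062 had a mean change of −1.94 with P010 and −0.57 with 5 others, a difference of −1.37 (SE 0.24, limma adjusted p = 0.0067). E080 had −1.38 and −0.33 (difference −1.06, SE 0.18, limma adjusted p = 0.0067). Apart from P001 and P007, the other promoters had 0.0683 to 0.181 alone, near the 0.124 of the empty construct. P010 had 0.753 in the plus and 0.432 in the minus orientation, so a fall had more room there. Whether this limit accounts for the differences of E062 and E080 was not tested. For E064 the 2 means were 3.08 and 3.14, and the difference of −0.06 (SE 0.26) did not pass. Without replicate 1, none of the 19 passed, with 8 at an unadjusted p under 0.05. Without replicate 2 and without replicate 3, 11 and 9 passed.

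Outside P010, the active M6pr promoter P001 also allowed falls to be seen. All 12 constructs of a member other than E064 with P001 in its plus orientation lay below the promoter alone, with log2 differences of −0.21 to −1.02. They came from 9 cCREs. The library lists 39 constructs with this oriented promoter, and those of other cCREs were not compared here. The lowest of the 12 was E080 in the minus orientation, at 2.02, 2.07 and 2.37 against 4.69, 4.51 and 3.91. It alone passed (−1.02, SE 0.16, limma adjusted p = 0.022). With P001 reversed, which gave 0.333, 0.278 and 0.415, E083 in the minus orientation gave 0.652, 0.977 and 0.778. This was a rise of 1.23 (SE 0.24, limma adjusted p = 0.036), lost with the block (adjusted p = 0.055). E083 in the plus orientation was also lower with P007, at 0.0923, 0.0818 and 0.122 (−1.51, SE 0.31, limma adjusted p = 0.037).

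Pairs of cCREs place 1 candidate enhancer before another, the second lying next to the reporter. With a member first, 193 of 2953 pairs (6.54%) were higher than the second cCRE alone and 7 (0.237%) lower by limma with Benjamini-Hochberg adjustment. In the mix 5.66% of 20304 were higher and 0.227% lower. Of the 193, 191 had E064 first, out of 319 such pairs, and the other 2634 pairs gave 2. With the block, 292 pairs were higher and 64 lower, and with quantile normalization 459 and 318. Without replicate 1 no pair passed, with 199 at an unadjusted p under 0.05, and without replicates 2 and 3, 74 and 129 passed.

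The 10 called cCRE pairs with the largest change all had E064 first and were 27.0-fold to 45.0-fold above the second cCRE alone. E064 alone gave 2.08 to 2.39. In 9 of the 10 pairs the second cCRE was near background, and the pair lay between 1.82 and 5.46 in each replicate. The exception was E064 before E082, both in the minus orientation, which gave 14.8, 14.1 and 13.0. E082 alone gave 0.353, 0.246 and 0.473 and E064 alone 2.18, 2.29 and 2.39, so the pair exceeded their sum in each replicate. It was above E082 alone by 5.33 (log2, SE 0.43, limma adjusted p = 0.020).

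Against the sum of both cCREs alone, 2 member pairs were higher, 0.069% in the mix, and 67 of 4965 lower, 1.35% in the mix, by limma with Benjamini-Hochberg adjustment. Among the 319 pairs with E064 first, 1 was higher and 34 (10.7%) lower. Their median log2 difference from the sum was −0.77, beside −1.13 in the mix. These 2 medians are not alike, since the sum counts the background of both constructs and most cCREs are near background. The empty pair had a mean of 0.127, where the sum of 2 single empty positions is 0.247. With the empty construct subtracted from the sum, the median was −0.33 for pairs with E064 in either position and −0.28 for member pairs without E064. E064 before E082 was one of the higher pairs, by 2.40 (log2, SE 0.28, adjusted p = 0.028). With E064 in the plus orientation before E082 in the minus orientation the pair gave 9.02, 8.93 and 6.37, above the sum by 1.69, which did not pass (limma adjusted p = 0.073). E082 in the plus orientation behind E064 gave 1.37, 1.36 and 1.09 or 2.14, 2.75 and 2.23, and these were not above the sum. In the reverse order, E082 in the minus orientation before E064 gave 3.80, 5.28 and 4.55 or 3.75, 4.53 and 3.64, again not past the threshold. The other higher pair was E043, a cCRE outside the interval, in the plus orientation before E064 in the minus orientation. It gave 13.0, 12.0 and 9.91 and exceeded the sum by 2.13 (SE 0.29, limma adjusted p = 0.041).

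The empty pair gave 0.122, 0.0700 and 0.240, about the value of a single empty position. With the empty construct subtracted from the sum, a baseline added after the data were seen, 35 member pairs were higher and 230 lower, and the median of all member pairs moved from −1.15 to −0.28. With the block and the plain sum, 124 were higher and 3360 lower. Shares over all pairs of the library are not given here for these 2 settings, so the counts do not set the members apart. Of the 69 pairs called against the plain sum without the block, none remained when any 1 replicate was left out. There 154, 747 and 1170 pairs had an unadjusted p under 0.05.

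With its strong neighbours, E064 gave no pair past the threshold against the sum. E073 before E064, both in the plus orientation, gave 7.75, 8.46 and 7.03, and E064 before E073 in the same orientations gave 6.07, 4.93 and 4.37. The first order was higher in each replicate. Over the 8 constructs of each order with E073 or E074, the log2 difference from the second cCRE alone was 1.13 to 1.86 with E064 second and 0.16 to 0.92 with E064 first. Against the sum of both, the 16 differences lay between −0.75 and 0.47, and none passed.

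Activity was higher with E064 next to the reporter than with E064 in the first position. In 222 pairs of the same 2 oriented cCREs made in both orders, the mean log2 activity was 0.33, 0.46 and 0.55 with E064 first and 1.19, 1.31 and 1.28 with E064 next to the reporter. It was lower in first position in each replicate, with a difference, first less second, of −0.81 ± 0.07 (SD, n = 3), and in 185 of the 222 pairs. With E064 first, pairs had mean activities from 0.142 to 13.9, with a median of 1.42 over 319, and with E064 second from 0.232 to 11.6, with a median of 2.35 over 245. Pairs of 2 members other than E064 had a median of 0.10 over 640, and 82 of them were above the empty pair in all 3 replicates.

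E062 lowered strong partners from either side. It lies 3255 bp upstream of E064 and was near background alone, at 0.138, 0.0438 and 0.249 in the plus orientation and 0.0959, 0.0349 and 0.206 in the minus orientation. Of the 7 cCRE pairs that were called lower, 5 had E062 first. Before E134, both in the plus orientation, E062 gave 0.580, 0.468 and 0.452, where E134 alone gave 2.62, 2.67 and 2.93, a difference of −2.46 (log2, SE 0.38, limma adjusted p = 0.021). Before E064 in the minus orientation, E062 in the plus orientation gave 0.517, 0.366 and 0.632. These values were all below 2.18, the lowest of E064 alone in that orientation, a difference of −2.21 (SE 0.42, limma adjusted p = 0.033). Before E073 in the minus orientation it gave 1.14, 0.705 and 0.815, against 3.37, 3.60 and 3.32 alone (−1.98, SE 0.41, limma adjusted p = 0.043).

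The same was seen over all 18 pairs with E062 first and a second cCRE with a mean activity over 1 alone. All 18 lay below the second cCRE alone, with a mean log2 difference of −1.64, −1.74 and −1.46 in the 3 replicates. Over 57 Nanog cCREs with at least 10 such pairs, the mean of −1.61 ± 0.14 (SD, n = 3) was the 3rd lowest. In the second position, between the strong cCRE and the reporter, E062 gave −2.78 ± 0.41 against the strong cCRE alone, in 17 of 17 pairs below it and 2nd lowest of 76. E064 before E062, both in the plus orientation, gave 0.186, 0.212 and 0.202, where E064 alone gave 2.08 to 2.21.

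E068 and E080 stood low in both positions as well. E068, 32.4 kb upstream of Nanog, had −0.78 ± 0.07 in first position (7th lowest of 57) and −2.13 ± 0.29 in the second (4th lowest of 76). All 13 pairs lay below the strong cCRE in both cases. E080 had −0.77 ± 0.08 and −1.86 ± 0.22 (8th lowest in both), in 10 of 10 and 19 of 19 pairs. E051 and E066 had too few pairs for a rank in first position. Their means there were lower, −1.03 over 5 pairs and −0.95 over 7. A cCRE placed second usually lowered a strong first cCRE, since the median was −1.01 over 18 members other than E064 and −0.82 over 55 other Nanog cCREs. In first position the medians were −0.19 over 12 members and −0.17 over 42 others. These ranks describe the library and were not tested.

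At the other end stood members near background alone that lay above 0 before strong partners. E085 had 0.51, 0.54 and 0.49 in first position, above the second cCRE alone in all 19 pairs. E075 had 0.36 ± 0.05 and was above in 13 of 14 pairs. Counted from the lowest, E085 stood 46th and E075 44th of 57, so other cCREs of the library stood higher. E052 had 0.59 ± 0.09 over 4 pairs, too few for a rank. These 3 each had a called rise with the Nanog promoter, but so did E071 and E057, whose means before strong partners were 0.05, with 6 of 11 pairs below the second cCRE alone, and −0.22, with 15 of 25 below. The 2 cCRE pairs called higher without E064 were E071 before E121, both in the minus orientation, at 1.17, 1.45 and 1.26 (2.46, SE 0.48, limma adjusted p = 0.036), and E057 before E120, both in the minus orientation, at 0.852, 0.966 and 1.16 (2.62, SE 0.52, limma adjusted p = 0.038).

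With E073 or E074 second, no member raised them past the threshold. The 3 highest of all such pairs were E064 in the minus orientation before E073 in either orientation, at 6.81, 7.88 and 6.26 for the plus and 6.29, 7.0 and 5.69 for the minus orientation of E073, and E082 in the minus orientation before E074 in the plus orientation, at 7.68, 7.89 and 6.20. Their log2 differences were 0.92, 0.88 and 0.89. The 3 lowest held E062 before E073, from −1.98 to −1.55, and the first of these was called. Over 115 such pairs without E064, 81 lay below the strong cCRE alone and 34 above.

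The readouts with promoters and with cCREs ranked the members alike. Over 20 members other than E064, the mean boost index had Pearson's r = 0.78 and Spearman's rho = 0.68 with the median log2 change of the cCRE pairs in which the member came first. These points share the replicates, the plasmid pool and the background level, and with E064 included r was 0.96 and rho 0.73 over 21. Activity alone was less closely related, with r = 0.46 and rho = 0.45 with the mean boost index over the same 20. The mean log2 activity of pairs with a member first and with it second had r = 0.68 and rho = 0.71 over 21 members without E064. No p is given for these relations, since fragments of 1 locus are no independent sample.

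E075, the member nearest to the Nanog gene, and E071 and E072, the nearest upstream of it, were at background alone. E072 gave 0.0374, 0.0426 and 0.369 in its only measured orientation. E076, 5302 bp from Nanog, was among the lowest members in its plus orientation. In the minus orientation it gave 0.165, 0.0716 and 0.261, above the empty construct in each replicate, and did not pass. E064, at 44.7 kb, stood between 2 neighbours near background alone, E063 and E065. E063 gave 0.163, 0.0589 and 0.276 in the plus orientation and 0.180, 0.0958 and 0.235 in the minus orientation. Each orientation of E063 was above the empty construct in 2 of 3 replicates, and neither passed. E059, 55.8 kb upstream, gave 0.0945, 0.0254 and 0.244 in the plus orientation and 0.125, 0.0549 and 0.309 in the minus orientation. E063 and E059 were seen in 5 pairs of cCREs each. Within Slc2a3, E082 was raised alone, E085 with the Nanog promoter, and E080 and E083 had mean boost indices below 0. E081 and E084, in the same span, passed neither with a promoter nor in the mean boost index. E046 in Gdf3 and E079, 149 bp from Slc2a3, passed none with promoters either, with mean boost indices of −0.01 and −0.19.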

How the data were processed

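Reporter RNA from the cDNA of 3 biological replicates was compared with plasmid DNA input (2 samples of the mix). Per the labels' protocols, an inverse PCR library linked barcodes to fragments. The submitters' processing notes name Bowtie2, with no version, and mm10. The values used are the authors' deposited activities per construct and replicate, each a ratio of cDNA to plasmid DNA. The authors' deposited boost index is on the log2 scale, and it was recomputed per replicate. The deposited mean equalled the geometric mean in 12997 of 12997 constructs and the boost index was recovered in 1256 of 1256, within 0.001. The 15 other value columns of the tables were not used. Read depth and barcode numbers are not known here.

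Tests on log2 activities used limma 3.58.1 (R 4.3.3, Python 3.11.15, numpy 2.4.6, pandas 2.3.3, scipy 1.17.1) over all constructs of the mix, with Benjamini-Hochberg adjustment and a threshold of 0.05. Any construct at 0 in a replicate was dropped. P-values measure the spread between 3 transfections of 1 plasmid pool. Mean boost indices needed 3 promoters and the orientation test 2 shared oriented promoters. Alternatives were a pseudocount of 0.01, a filter at a geometric mean of 0.1, quantile normalization, a replicate block, other baselines and leaving out each replicate. Some of the fits were also run on simulated data. There construct and baseline varied independently, so the run does not test the unpaired fit on paired values. Replicate n of every construct comes from 1 transfection, so the numbers pair the values by design. Deviations of pairs and promoters correlated at 0.02, 0.57 and 0.74 in replicates 1, 2 and 3.

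Named were the 5 cCREs with the highest and the 5 with the lowest mean boost index, the 5 most and 3 least active alone, those at Gdf3, Dppa3, Nanog and Slc2a3, the 10 largest called pairs of each kind, pairs with P010, and the 3 highest and 3 lowest with E073 or E074. Others were chosen after their values were seen. The members and lists were chosen with earlier results of these data known.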

Additional observations from a re-analysis of the deposited data

How the results depend on the processing

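Single values were recomputed for the cCREs called alone and for the largest called pairs with a promoter or a second cCRE. The highest and lowest mean boost indices and the called orientation tests were also included. All of these pairs held E064. Over this set, 208 recomputed values kept direction and side of the threshold, 65 were no longer past it, 3 became so and 3 changed sign. Other named pairs and single cCREs, among them every named pair without E064, were not in this tally. The sign changes were the mean boost index of E052, −0.093 without replicate 3 and 0.14 without replicate 2, and of E081, −0.026 with the pseudocount and −0.14 with the filter on low activity. Called member constructs with a promoter numbered 47, and 114 with quantile normalization. Members called alone numbered 3, 23 with quantile normalization and 6 against the empty construct. Called cCRE pairs numbered 200 against the second cCRE and 777 with quantile normalization. Against the sum they numbered 69, 3700 with quantile normalization, 313 with the filter and 265 with the empty construct subtracted. The mean boost index called 8 members, and 2 with the median over promoters. The orientation test called 2, and 1 with the pseudocount or the filter, E064 in both cases.

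With the replicate as a block, which pairs values of the same transfection, 63 promoter constructs were called, 356 cCRE pairs against the second cCRE, 3484 against the sum and 363 against the sum less the empty construct.

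Leaving out each replicate in turn gave 0 promoter constructs in each case, 3 to 11 members alone, 0 to 129 cCRE pairs against the second cCRE, 0 against the sum, 1 to 3 mean boost indices, 0 orientation calls and 0 to 11 members in the comparison of P010 with other promoters. The cause was not tested. The empty-construct baselines, the limit of 10 constructs per promoter and the P010 comparison were chosen after seeing the data. A minimum of barcodes per construct was not run, since barcode numbers are not known here.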
